A study of Homo sapiens with 6 samples.

Results

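Semaphorins, plexins and neuropilins form a family of guidance ligands and their receptors, and their transcripts were examined in a breast cancer line grown with 25(OH)D. The genes were taken by name from the table of counts, as SEMA3 to SEMA7 followed by a letter, PLXNA to PLXND followed by a number, and NRP1 and NRP2. This gave 29 genes of the 33451 in the table, namely 18 semaphorins, 9 plexins and 2 neuropilins. SEMA3A and SEMA3E had no row in the table and were not analysed here.

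The cells, MDA-MB-453, are a long-established breast carcinoma line of luminal androgen receptor type. The control group (CG) was cultured for 5 days with 0.1% alcohol, the solvent, and the experimental group (EG) for 5 days with 100 nM 25(OH)D, the main vitamin D metabolite in the circulation. Each group had 3 libraries of mRNA, which the study calls biological replicates. Both groups were the same line in the same medium with serum, so the values describe a single line at a single dose and time.

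Semaphorins bind plexins, which act on small GTPases and so reshape the actin cytoskeleton and cell adhesion. Class 3 semaphorins are secreted and mostly need a neuropilin as co-receptor, whereas classes 4 to 6 span the membrane and class 7 is anchored by a lipid. The family was first known from axon guidance, and in breast and other epithelia it is studied for cell migration, for the growth of vessels and as tumour suppressors or promoters. Neuropilins also bind vascular endothelial growth factors.

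Active vitamin D acts through the vitamin D receptor (VDR), a nuclear receptor that binds paired hexamers, so the promoter windows of the family were searched for the hexamers AGGTCA or GGGTCA and also AGTTCA or GGTTCA on both strands. Windows were the 250 bases before each annotated start in RefSeq (GRCh38.p14), and 26 of the 29 genes had at least 1 window. NRP1, SEMA6A and SEMA6B had none. A pair of these hexamers in the same orientation with NNN between them was in 0 of the 48 windows of the family, 2 of them of SEMA3E, and in 0.0655% of all 35116 windows. At least 1 single hexamer was in 37.5% of the family's windows and in 33.8% of all windows. The sequences below are shown because they belong to genes that moved, and capitals mark the hexamer, which lies on the opposite strand and so reads as its reverse complement. The SEMA4B window (chr15:90191671-90191920, plus strand) held GGGTCA 117 bases before the start, and it is 1 of 3 windows of that gene. The SEMA3F window (chr3:50158769-50159018, plus strand) held AGGTCA 60 bases before the start, again in 1 of 3 windows. The single window of PLXNA2 (chr1:208244385-208244634, minus strand) held none of the 4 hexamers, and 72.4% of its bases were G or C. Of the other called genes with a window, PLXND1 and SEMA3B also held a hexamer, in 1 of 5 windows for SEMA3B, and PLXNA1 and PLXNA4 held none. Genes that were not called, such as PLXNA3 and PLXNB2, held 1 too. The counts do not show which of these starts the cells used.
SEMA4B: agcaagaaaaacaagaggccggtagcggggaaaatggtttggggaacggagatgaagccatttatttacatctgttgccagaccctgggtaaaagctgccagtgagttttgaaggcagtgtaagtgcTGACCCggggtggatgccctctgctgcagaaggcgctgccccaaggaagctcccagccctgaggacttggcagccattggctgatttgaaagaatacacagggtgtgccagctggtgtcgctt
SEMA3F: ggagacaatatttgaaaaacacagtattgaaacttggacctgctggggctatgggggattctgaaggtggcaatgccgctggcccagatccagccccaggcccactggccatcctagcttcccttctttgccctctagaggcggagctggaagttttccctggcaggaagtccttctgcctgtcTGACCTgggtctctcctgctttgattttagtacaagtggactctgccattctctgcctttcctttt
PLXNA2: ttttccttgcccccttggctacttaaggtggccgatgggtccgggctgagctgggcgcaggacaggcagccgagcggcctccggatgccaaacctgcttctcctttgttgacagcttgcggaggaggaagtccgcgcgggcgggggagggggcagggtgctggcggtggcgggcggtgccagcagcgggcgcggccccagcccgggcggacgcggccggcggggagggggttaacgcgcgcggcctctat

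The libraries held between 33268860 and 40928176 counts, and 3 counts, the floor used here, were worth between 0.0720 and 0.0921 CPM (counts scaled to library size with TMM factors). Of the values from 1 to 20 counts in the table, 67.2% were even, so a count may stand for 1 mate of a read pair rather than for 1 fragment. Low counts, and the floor, may then rest on fewer fragments than their number. The 9 markers of luminal epithelium and of the line, such as KRT8 and ERBB2, summed to between 4866 and 5468 CPM in every library. Markers of endothelium and leucocytes summed to at most 0.489 and 0.212 CPM, with CDH5 not listed. The fibroblast markers COL1A1 and PDGFRB, of which COL1A1 gave nearly all counts, summed to 36.0 to 38.5 CPM in control and 32.0 to 34.4 CPM in 25(OH)D. The 3 basal markers summed to 0.480 to 0.899 CPM in control and 0.522 to 1.17 CPM in 25(OH)D. Among them, TP63 had 12, 26 and 19 control counts and fell to 3, 2 and 2 (log2 fold change -2.84, adjusted p = 0.00193 from edgeR). KRT14 went from 4, 6 and 1 counts to 24, 8 and 12 without overlap but did not pass the filter, and KRT5 went from 4, 2 and 10 counts to 14, 18 and 3 and was not called (log2 fold change 1.21, adjusted p = 0.201 from edgeR). The Schwann cell marker SOX10 had 17, 14 and 13 control counts and fell to 2, 5 and 2 (log2 fold change -2.12, adjusted p = 0.00884 from edgeR). TP63 and SOX10 passed the filter on low counts only through the control group, where they were higher. The part of these markers in the results was not tested. VDR rose from 80.8 ± 0.739 to 133 ± 6.16 CPM (SD, n = 3 each), while CYP24A1, which degrades vitamin D, had no row. In bulk RNA, fewer cells that express a gene and less RNA per cell cannot be told apart.

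Of the 29 genes, 24 passed the filter on low counts and were tested. PLXNA4 and SEMA6B passed it only through the group in which they were higher. At an adjusted p under 0.05 (edgeR's quasi-likelihood F-test, adjusted by Benjamini-Hochberg over 18183 genes), 5 rose in 25(OH)D, namely SEMA3B, SEMA4B, PLXNA1, PLXNA4 and NRP1, and 4 fell, namely SEMA3F, SEMA6B, PLXNA2 and PLXND1. These 9 genes were 37.5% of those tested, and 33.8% of all genes tested were called at this threshold, 17.3% higher and 16.5% lower. The study's own limits were a log2 fold change beyond 1 in either direction together with an unadjusted p under 0.05. Of the 24 genes, 4 passed them upwards and 3 downwards, where 4.02% and 2.63% of all genes tested did so, 6.65% in all. In 13 of the 24 genes no EG library fell within the CG range or the reverse, and this held for 45.7% of all genes. The median log2 fold change was 0.024 over the 24 genes and -0.011 over all genes tested. With upper-quartile factors or library sizes alone, 4 genes rose and 6 fell, since PLXNA1 was no longer called and SEMA4A and PLXNB2 were called lower.

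**Figure D1:**
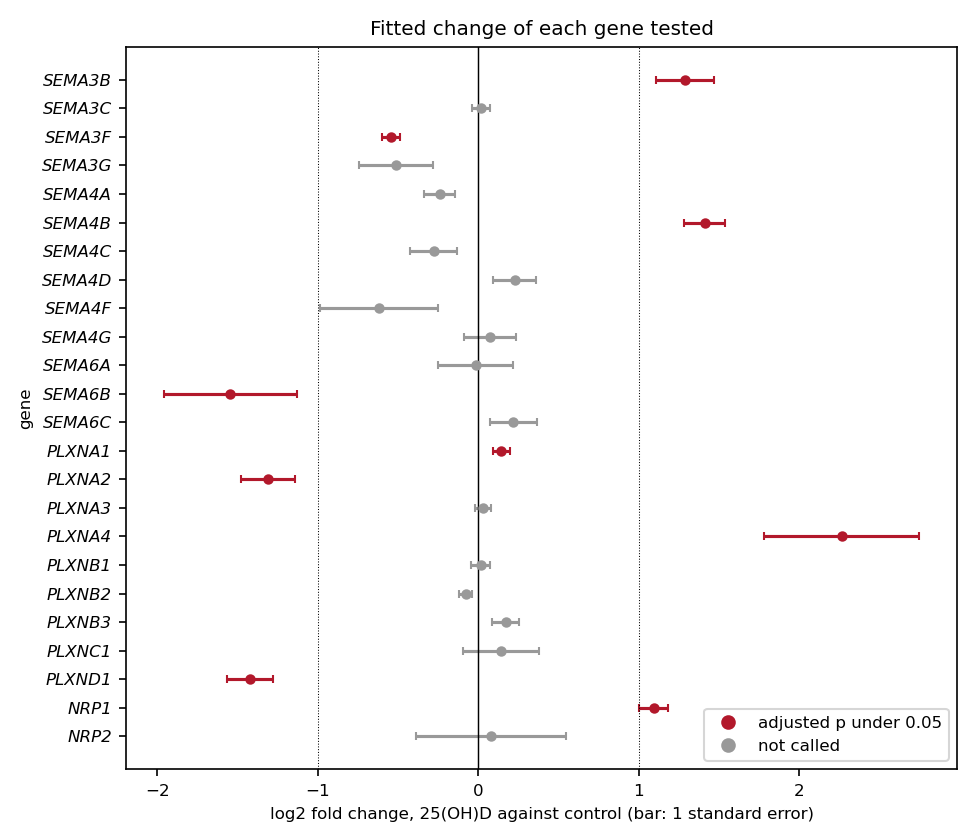
Log2 fold change of 25(OH)D against control for each of the 24 genes tested, with bars of 1 approximate standard error, computed from the fold change and edgeR's F, and 3 libraries in each group. Red points had an adjusted p under 0.05, and dotted lines mark log2 fold changes of -1 and 1. PLXNA4 lies furthest to the right at 2.26 and SEMA6B furthest to the left at -1.54, and both have long bars.

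**Figure D2:**
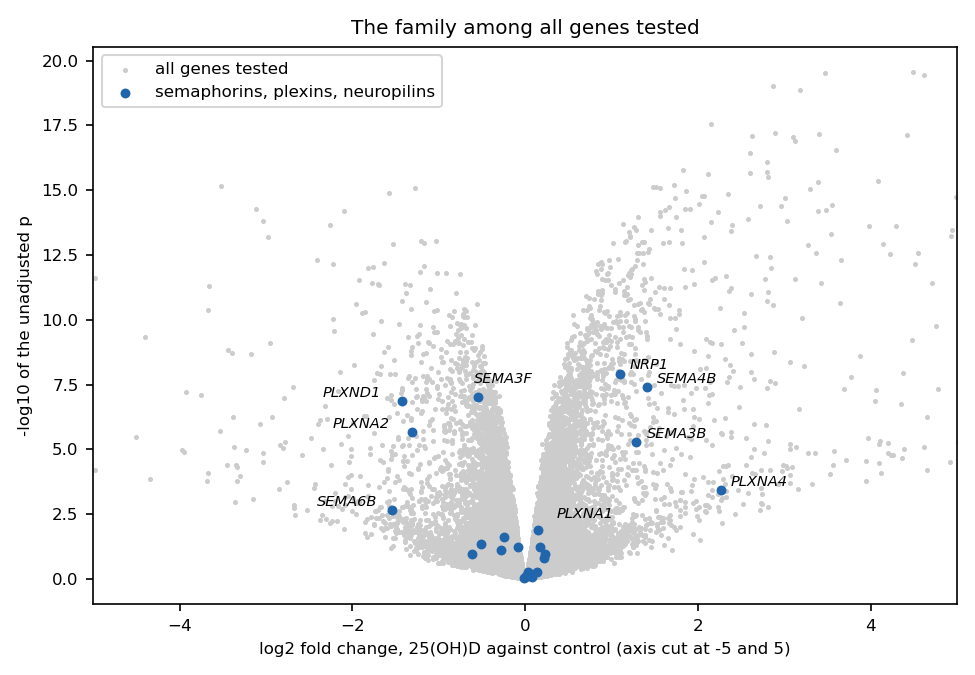
Log2 fold change (horizontal axis) against -log10 of the unadjusted p (vertical axis) for all genes tested in grey and the 24 genes of the family in blue, with the 9 called genes named. The called genes lie on both sides, and many other genes lie above them. Genes beyond the ends of the horizontal axis are not shown.

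Among the secreted class 3 semaphorins, SEMA3F fell and SEMA3B rose. SEMA3F (chromosome 3, 50155045 to 50189075, plus strand of GRCh38), a ligand that acts mainly through NRP2, had 54.8, 55.1 and 58.2 CPM in the control libraries and 37.9, 39.1 and 38.4 CPM in the 25(OH)D libraries. Every 25(OH)D library lay below every control library. On the log2 scale the change was -0.54 ± 0.0536 (standard error, here and throughout approximated from edgeR's F), at an adjusted p of 2.05e-06 by edgeR, a level 1.46-fold lower, and it stayed between -0.55 and -0.51 with each library left out in turn. SEMA3F shares 110 of its 4826 exon bases with SEMA3F-AS1 on the opposite strand, which also fell (log2 fold change -0.24, adjusted p = 0.0221 from edgeR).

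SEMA3B (chromosome 3, 50267558 to 50277546, plus strand), a candidate tumour suppressor of the same chromosome arm, starts 78482 bases beyond the end of SEMA3F. It had 67, 53 and 57 control counts and 121, 139 and 134 counts with 25(OH)D. The groups were well apart, and the mean rose from 1.52 ± 0.107 to 3.72 ± 0.348 CPM (SD, n = 3 each). Its fitted change was a log2 fold change of 1.29, its standard error being 0.179 and its adjusted p by edgeR 6.06e-05. These neighbours thus moved in opposite directions, and the ratio of SEMA3F to SEMA3B in RPKM, a level per gene length, went from 44.2 ± 3.23 to 12.4 ± 1.09 (SD, n = 3 each). A ratio within a library does not depend on scaling. Since both genes were already apart between the groups, in opposite directions, their ratio had to be apart too. Its exact two-sided permutation test could thus only give p = 0.1, the smallest that 3 libraries against 3 allow. It adds no separate support.

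SEMA3C, a ligand of the developing heart outflow and of epithelial tumours, had 44.1 ± 1.59 CPM in control and 44.6 ± 1.14 CPM in 25(OH)D (SD, n = 3 each), and its libraries overlapped. Fitted over all genes, its log2 fold change was 0.016, with 0.0554 as its standard error (edgeR, adjusted p = 0.853), and its sign turned with upper-quartile factors or library sizes alone. The ratio of SEMA3F to SEMA3C in RPKM was 1.58, 1.70 and 1.68 in control and 1.08, 1.13 and 1.15 in 25(OH)D, without overlap. SEMA3G, known from endothelium, had 1.85 ± 0.227 CPM in control and 1.30 ± 0.194 CPM in 25(OH)D (SD, n = 3 each). Its libraries did not overlap, but the adjusted p was 0.109 from edgeR (log2 fold change -0.51), so it was not called. SEMA3D had 6, 2 and 0 control counts and 0 in every 25(OH)D library, too few for a fold change.

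Of the 6 transmembrane class 4 semaphorins, all of which were tested, 1 was called. SEMA4B (chromosome 15, 90160604 to 90229679, plus strand) had 3.29, 3.83 and 3.26 CPM in the control libraries and 8.19, 9.99 and 9.42 CPM in the 25(OH)D libraries. The lowest 25(OH)D library was well above the highest control library. On the log2 scale the change was 1.41 ± 0.129 (standard error), at an adjusted p of 9.52e-07 by edgeR, a 2.66-fold rise, and it stayed between 1.35 and 1.50 with each library left out in turn.

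SEMA4A, known for its role in the activation of T cells, had 15.4, 13.9 and 14.1 CPM in control and 11.5, 13.8 and 11.4 CPM in 25(OH)D. The groups did not overlap by a narrow margin, and the log2 fold change of -0.24 was not called (standard error 0.0956, adjusted p = 0.0683 from edgeR). Without 25(OH)D replicate 2, the highest library of its group, the adjusted p was 0.0230. The ratio of SEMA4A to SEMA4B in RPKM went from 4.33 ± 0.545 to 1.37 ± 0.114 (SD, n = 3 each). Thus SEMA4B rose from 9.82% ± 1.13 to 24.3% ± 1.67 (SD, n = 3 each) of the summed RPKM of class 4.

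The other four were not called, with adjusted p-values from 0.171 to 0.773 from edgeR. SEMA4C, a ligand of PLXNB2, had 6.64 ± 1.12 CPM in control and 5.46 ± 0.733 CPM in 25(OH)D (SD, n = 3 each). SEMA4D, the ligand of PLXNB1, had 6.01 ± 0.833 and 7.05 ± 0.745 CPM in the same order. The libraries of both genes overlapped between the groups. SEMA4G changed by 0.072 ± 0.161 on the log2 scale (standard error) and shares 1170 of its 5253 exon bases with MRPL43 on the opposite strand. SEMA4F had between 18 and 52 counts and a log2 fold change of -0.62 with a standard error of 0.367.

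Classes 5 to 7 were sparse. SEMA6B (chromosome 19, 4542593 to 4559808, minus strand), a ligand of PLXNA4, had 36, 30 and 24 control counts and 6, 14 and 8 counts with 25(OH)D. With 25(OH)D, replicate 2 alone exceeded the filter's minimum count of 10, so SEMA6B was tested because of its control libraries. The groups did not overlap, and the log2 fold change was -1.54, its standard error being 0.412 and its adjusted p by edgeR 0.00960. This call rested on few reads, and without 25(OH)D replicate 1 the adjusted p was 0.0523. SEMA6A, a ligand of PLXNA2 and PLXNA4, had 1.60 ± 0.251 CPM in control and 1.57 ± 0.258 CPM in 25(OH)D (SD, n = 3 each). SEMA6C had 3.51, 3.36 and 3.42 CPM in control and 3.73, 3.85 and 4.42 CPM in 25(OH)D, without overlap, but was not called (adjusted p = 0.283 from edgeR). SEMA5A, SEMA5B and SEMA6D had at most 6 counts in any library. SEMA7A, the ligand of PLXNC1, had 18, 3 and 9 counts in control and 2, 6 and 2 counts in 25(OH)D, and did not pass the filter.

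The 4 plexins of class A, the partners of the neuropilins, differed in direction. PLXNA2 (chromosome 1, 208022242 to 208244320, minus strand) had 4.97, 4.60 and 4.48 CPM in the control libraries and 1.65, 1.82 and 2.21 CPM in the 25(OH)D libraries. Every 25(OH)D library lay below the control libraries, and the log2 fold change was -1.31, with 0.168 as its standard error (edgeR, adjusted p = 2.86e-05), a 2.48-fold fall. It stayed between -1.42 and -1.22 with each library left out in turn.

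PLXNA4 (chromosome 7, 132123332 to 132648688, minus strand), which with PLXNA2 is a receptor of class 6 semaphorins, went the other way from a very low level. It had 4, 12 and 4 control counts and 26, 30 and 33 counts with 25(OH)D, without overlap. In control, replicate 2 alone exceeded the filter's minimum count of 10, so PLXNA4 was tested because of its 25(OH)D libraries. Its fitted change was a log2 fold change of 2.26 ± 0.483 (standard error), at an adjusted p of 0.00212 by edgeR. Without control replicate 2, the highest of its group, the log2 fold change was 3.01. The call was lost with limma on log2(RPKM + 1) and log2(RPKM + 0.1), where the change of PLXNA4 was 0.056 and 0.44 (adjusted p = 0.185 and 0.0532 from limma), a scale that shrinks changes of low levels. Even after the rise, PLXNA4 reached only 0.0507 ± 0.00867 RPKM, against 0.135 ± 0.0201 RPKM for PLXNA2 (SD, n = 3 each, both in 25(OH)D). The ratio of PLXNA2 to PLXNA4 in RPKM was 61.5, 17.2 and 49.0 in the control libraries and from 2.59 to 2.77 with 25(OH)D.

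The abundant members of class A moved little. PLXNA3 had 133 ± 8.89 CPM in control and 136 ± 1.23 CPM in 25(OH)D (SD, n = 3 each), and its log2 fold change of 0.032 (adjusted p = 0.666 from edgeR) changed sign with upper-quartile factors or library sizes alone. PLXNA1, a receptor subunit for class 3 semaphorins, had 63.1, 59.0 and 59.6 CPM in the control libraries and 68.5, 65.0 and 67.4 CPM in the 25(OH)D libraries. Its small rise (log2 fold change 0.14, standard error 0.0506, adjusted p = 0.0409 from edgeR) was lost without control replicate 2 or 3 and without 25(OH)D replicate 1 or 3, when the adjusted p lay between 0.0579 and 0.134. PLXNA1 and PLXNA3 together made up most of the summed RPKM of class A, of which PLXNA3 took 65.8% ± 2.35 in control and 64.8% ± 0.421 in 25(OH)D (SD, n = 3 each).

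Of the other plexins, PLXND1 fell and the remaining 4 were not called. PLXND1 (chromosome 3, 129555175 to 129606818, minus strand), the receptor of SEMA3E in vessel patterning, had 7.93, 7.40 and 9.53 CPM in the control libraries and 2.67, 3.28 and 3.31 CPM in the 25(OH)D libraries. The groups were far apart, and the log2 fold change was -1.42, its standard error being 0.144 and its adjusted p by edgeR 2.63e-06, a 2.68-fold fall. It stayed between -1.49 and -1.30 with each library left out in turn.

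PLXNB2, a receptor of class 4 semaphorins, was the most abundant gene of the family, with 365, 344 and 351 CPM in control and 329, 345 and 329 CPM in 25(OH)D, which overlapped narrowly. Fitted over all genes, its log2 fold change was -0.079, with 0.0384 as its standard error (edgeR, adjusted p = 0.136). Scaled by library sizes alone, PLXNB2 was at -0.12 and called (adjusted p = 0.0252 from edgeR). PLXNB1, the receptor of SEMA4D, had 47.3 ± 2.55 and 47.8 ± 0.764 CPM in the same order, and its direction also turned with the scaling. PLXNB3, a receptor of SEMA5A, had 17.0 ± 1.59 and 19.1 ± 0.383 CPM (SD, n = 3 each, adjusted p = 0.132 from edgeR). It shares 1432 of its 7007 exon bases with SRPK3 on the same strand, so reads there cannot be assigned to PLXNB3 alone. PLXNC1 had between 49 and 81 counts and a log2 fold change of 0.14 (standard error 0.236).

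Of the neuropilins, NRP1 rose and NRP2 was near the limit of detection. NRP1 (chromosome 10, 33177492 to 33336262, minus strand), the co-receptor of SEMA3A and of VEGFA, had 9.37, 11.1 and 9.40 CPM in the control libraries and 22.4, 21.5 and 19.7 CPM in the 25(OH)D libraries. The lowest 25(OH)D library was well above the highest control library. On the log2 scale the change was 1.09 ± 0.0908 (standard error), at an adjusted p of 3.60e-07 by edgeR, a 2.13-fold rise, and it had the smallest p of the family. It stayed between 1.06 and 1.18 with each library left out in turn. NRP1 shares 561 of its 11522 exon bases with RP11-342D11.2 on the opposite strand, which had between 55 and 123 counts and also rose (log2 fold change 0.78, adjusted p = 0.00896 from edgeR).

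NRP2, the co-receptor preferred by SEMA3F, had 16, 13 and 10 control counts and 11, 20 and 7 counts with 25(OH)D. The groups overlapped, and the standard error of its log2 fold change was 0.469, so a change of moderate size was not detectable at this depth. NRP1 made up 97.3% ± 0.506 of the RPKM of both neuropilins in control and 98.7% ± 0.561 in 25(OH)D (SD, n = 3 each). The ratio of NRP1 to SEMA3F in RPKM went from 0.0744 ± 0.00852 to 0.231 ± 0.0164 (SD, n = 3 each). The lack of overlap in this ratio follows from the opposite changes of both genes, given above.

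**Figure D3:**
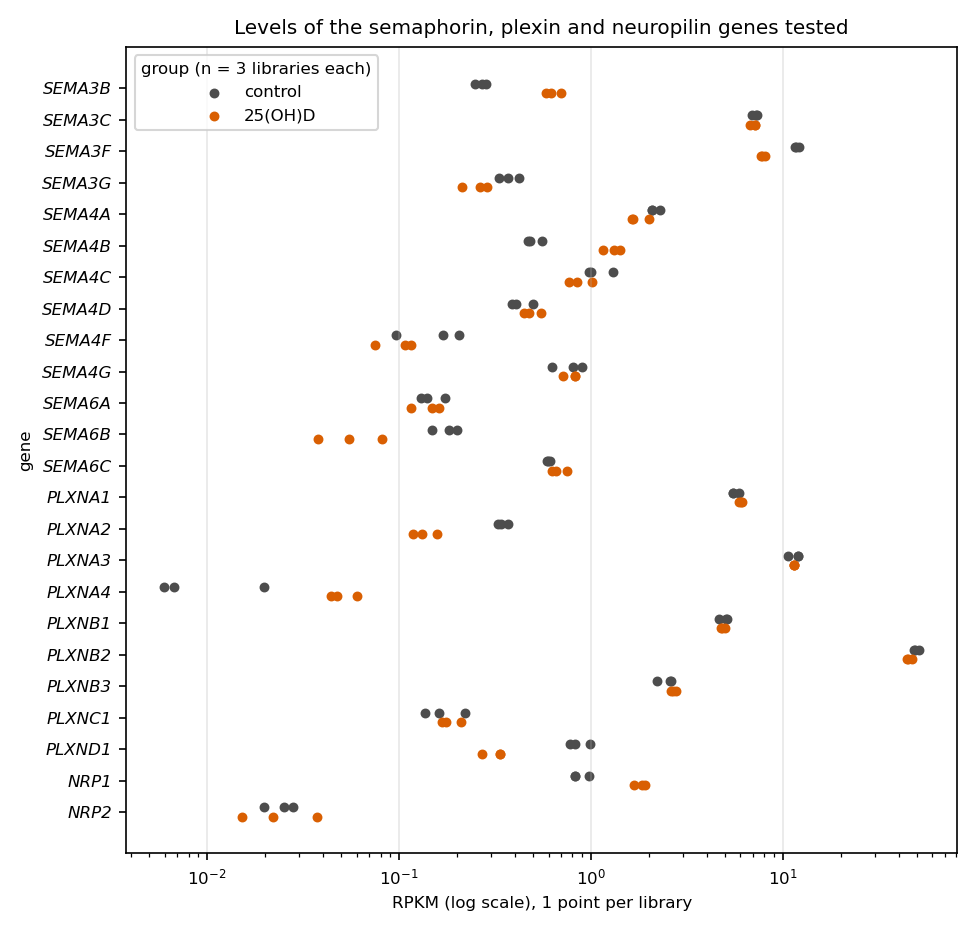
RPKM of the 24 genes tested, on a log scale, with 1 point for each of the 3 control libraries in grey and the 3 libraries of 25(OH)D in orange. PLXNB2 stands far above the rest, and the points of SEMA3B, SEMA4B, PLXNA4 and NRP1 lie to the right in 25(OH)D.

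Per gene length, the order of the control levels began with PLXNB2 at 49.4 ± 1.61 RPKM, followed by SEMA3F at 11.8 ± 0.341 and PLXNA3 at 11.5 ± 0.742 RPKM (SD, n = 3 each), of which SEMA3F and PLXNA3 overlapped. SEMA3C, PLXNA1 and PLXNB1 came next, each apart from its neighbour, with 7.13, 5.62 and 4.93 RPKM. In 25(OH)D SEMA3F fell to the third place with 7.84 ± 0.173 RPKM, below PLXNA3 with 11.4 ± 0.0297 RPKM. By its mean, NRP1 was at the tenth place in control with 0.875 RPKM, where it overlapped PLXND1, and at the eighth in 25(OH)D with 1.81 RPKM, where it overlapped SEMA4A. PLXND1 was at the 11th place in control with 0.863 RPKM, overlapping NRP1 and SEMA4G, and at the 16th in 25(OH)D with 0.312 RPKM, overlapping SEMA3G. SEMA3F and SEMA3C together took most of the semaphorin RPKM, SEMA3F with 45.9% ± 0.774 in control and 35.7% ± 0.498 in 25(OH)D, and SEMA3C with 27.8% ± 0.599 and 31.9% ± 1.02 (SD, n = 3 each). The summed RPKM of all semaphorins ranged from 25.1 to 26.3 in CG and from 21.5 to 22.8 in EG. RPKM values are scaled to total counts and carry no TMM factors.

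**Figure D4:**
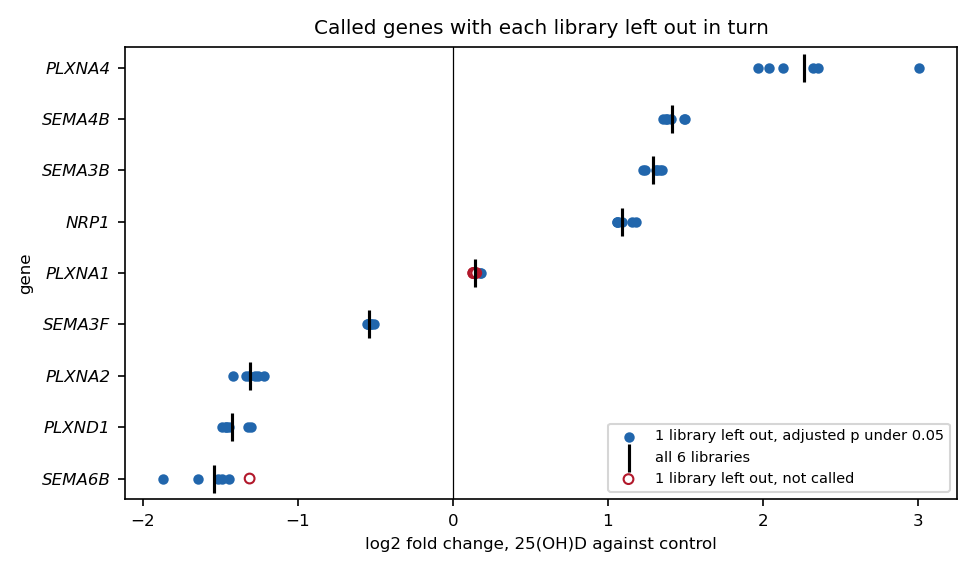
Log2 fold change of 25(OH)D against control for the 9 called genes, with all 6 libraries (black bars) and with each library left out in turn (points). Filled points kept an adjusted p under 0.05, and open red points did not, as for PLXNA1 and SEMA6B. The points of PLXNA4 spread from 1.97 to 3.01.

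Other genes that work with this family were taken from a list of 73 receptors, further ligands, proteases and effectors of plexins, of which 55 were tested. Of these, 13 rose and 18 fell at an adjusted p under 0.05, which is 56.4% of them against 33.8% of all genes tested. With upper-quartile factors or library sizes alone, 9 rose and 23 fell. Their median log2 fold change was -0.13, against -0.011 over all genes tested. In size their changes were close to those of all genes, with a median absolute log2 fold change of 0.237 against 0.225. Of the 55 genes, 4 passed the study's limits on fold change and unadjusted p, which is 7.27% against 6.65% of all genes tested.

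Among the other ligands of neuropilins, 2 of the 3 tested fell and none rose, where 16.5% of all genes tested fell. With 3 genes this shows no trend of the group. VEGFA, the main angiogenic factor, had 340, 325 and 315 CPM in the control libraries and 212, 217 and 212 CPM in the 25(OH)D libraries. The groups were far apart, and the log2 fold change was -0.61, its standard error being 0.0390 and its adjusted p by edgeR 2.06e-08. VEGFC, a lymphatic growth factor that was chosen for mention after its values were seen, was at 5.63 ± 0.197 CPM in CG and 2.01 ± 0.643 CPM in EG (SD, n = 3 each) and fell by a log2 value of -1.47 (adjusted p = 4.62e-05 from edgeR). The ratio of NRP1 to VEGFA in RPKM went from 0.0381 ± 0.00408 to 0.124 ± 0.00788 (SD, n = 3 each).

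Of the 6 proteases that cut semaphorins or their receptors, all tested, 1 rose and 2 fell, which is 50.0% against 33.8% of all genes tested. FURIN, the convertase that processes class 3 semaphorins, had 13.9, 15.3 and 13.3 CPM in the control libraries and 6.57, 6.40 and 6.32 CPM in the 25(OH)D libraries. FURIN fell, and on the log2 scale the change was -1.14, with 0.0960 as its standard error (edgeR, adjusted p = 4.14e-07). ADAM10, a sheddase, rose by a log2 value of 0.27 ± 0.0408 (standard error), at an adjusted p of 1.38e-04 by edgeR.

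Of 39 effectors tested, 10 rose and 12 fell, which is 56.4% against 33.8% of all genes tested. RND3, an atypical small GTPase that counters the kinase ROCK1, was at 143 ± 5.99 CPM in CG and 471 ± 5.40 CPM in EG (SD, n = 3 each) and rose by a log2 value of 1.72, its standard error being 0.0403 and its adjusted p by edgeR 4.39e-13. MICAL3, of the oxidoreductases that act on actin below plexins, was chosen for mention after its values were seen and rose from 154 ± 3.81 to 356 ± 10.7 CPM (SD, n = 3 each, adjusted p = 1.27e-11 from edgeR). Its relatives MICAL1 and MICAL2 were not called (log2 fold changes -0.013 and -0.75, adjusted p = 0.973 and 0.163 from edgeR). LIMK2, a kinase that inactivates cofilin, changed by a log2 value of -0.26, with 0.0376 as its standard error (edgeR, adjusted p = 1.03e-04).

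Of 17 other receptors, 7 were tested, of which 2 rose and 2 fell, which is 57.1% against 33.8% of all genes tested. ERBB2, a partner of PLXNB1, rose from 349 ± 1.71 to 408 ± 10.5 CPM (SD, n = 3 each, log2 fold change 0.22, adjusted p = 1.89e-04 from edgeR). MST1R, a relative of MET, fell from 20.9 ± 0.376 to 17.6 ± 0.706 CPM (SD, n = 3 each, log2 fold change -0.25, adjusted p = 0.0139 from edgeR). MET, another known partner of the class B plexins, had at most 6 counts in any library, and KDR, the VEGF receptor that pairs with NRP1, had 2 counts in 1 library and 0 in the others.

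**Figure D5:**
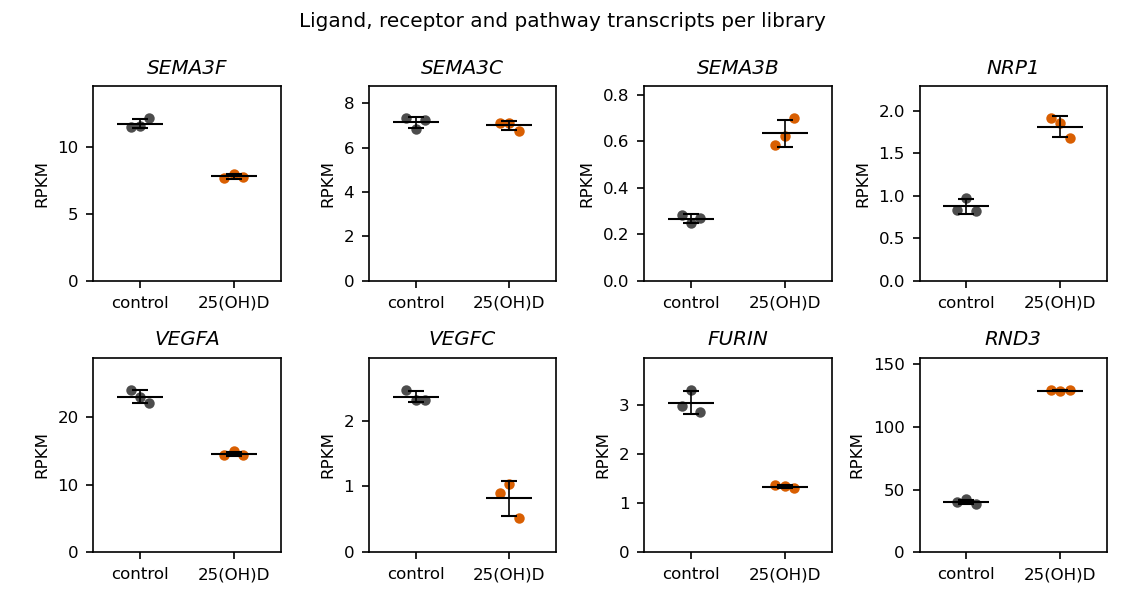
RPKM per library of SEMA3F, SEMA3C, SEMA3B, NRP1, VEGFA, VEGFC, FURIN and RND3, each on its own axis from 0, with 3 points for each group and a bar for the mean with 1 SD. SEMA3C overlaps between the groups, and the other genes shown are apart, with SEMA3B, NRP1 and RND3 higher in 25(OH)D.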

How the data were processed

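The authors deposited whole-number counts of reads per gene without normalization, and RPKM values. Each RPKM equalled the count divided by gene length and total count (largest relative difference 5.11e-15). The submitters' notes name Trimmomatic 0.36, featureCounts, Subread 1.5.1, edgeR 3.12.1 and GRCh38. The aligner, the annotation release and the strand setting are not given in the sources used here. Of the values from 1 to 20 counts, 67.2% were even, so both mates of a pair may have been counted, and the counting mode is not given in the sources used here.

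All 6 columns were used, and groups came from the sample titles. The counts were fitted by edgeR 4.0.16 under R 4.3.3, using TMM, the package's low-count filter (minimum count 10) and the quasi-likelihood test without covariates. Standard errors are approximate, computed as the absolute log2 fold change over the root of F. Each replicate pair differed by more than sampling noise (chi-square per gene 4.01 to 12.1). In data simulated from this comparison (17888 genes, 200 changed 2-fold), 198 were recovered with 20 false calls. The changed genes were drawn only from those with high mean counts. The recovery therefore does not apply to genes with low counts, such as PLXNA4, SEMA6B and NRP2. Alternatives used DESeq2 1.42.0 and limma 3.58.1, and figures matplotlib 3.10.9. Exon positions were those of the table, and promoter windows were those of RefSeq. Every gene of the family is accounted for. From the list of other genes, the smallest p in each direction of each subgroup was named. The members and lists were chosen with earlier results of these data known. Columns left out numbered 0.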

Additional observations from a re-analysis of the deposited data

How the results depend on the processing

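The cause of the changes below was not tested, except that the pseudocount shrinks the fold changes of genes with low RPKM. With limma on log2(RPKM + 1), with or without the filter, 3 genes of the family were called higher in place of 5, and 0 higher and 0 lower passed the limits on fold change. With limma on log2(RPKM + 0.1) these were 3, 1 and 1. PLXNA4 and PLXNA1 lost their calls in these settings. PLXNA1 also lost it with upper-quartile factors, with library sizes alone and without the low-count filter. With each library left out, between 4 and 5 genes were called higher and between 3 and 5 lower, and SEMA6B lost its call without 25(OH)D replicate 1. Of the 9 called genes, SEMA3B, SEMA3F, SEMA4B, PLXNA2, PLXND1 and NRP1 kept direction and call in every setting run. Signs of genes near 0 turned. With upper-quartile factors and library sizes alone, SEMA3C was at -0.025 and -0.028, PLXNA3 at -0.0099 and -0.012, and PLXNB1 at -0.027 and -0.029. With limma on log2(RPKM + 1) and log2(RPKM + 0.1), SEMA3C was at -0.024 and -0.027, PLXNA3 at -0.0094 and -0.0099, and PLXNB1 at -0.024 and -0.028. With single libraries left out, SEMA3C reached from -0.0080 to 0.048, SEMA4G from -0.057 to 0.20, SEMA6A from -0.11 to 0.12, PLXNA3 from -0.016 to 0.071, PLXNB1 from -0.022 to 0.054 and NRP2 from -0.32 to 0.33. With the replicate number as a block, 5 were higher and 4 lower, and no call of the family changed. Same-numbered libraries did not deviate together (correlations -0.072, -0.012 and -0.046). With 3 libraries in each group this cannot show whether the samples were handled in pairs. Counts divided by 2, an alternative chosen after seeing the data, gave 5 and 4. Depth limits genes under about 20 counts, such as NRP2 and SEMA7A.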
